A study of Homo sapiens with 18 samples.

Results

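The replication-dependent histone genes are the clustered genes that supply the cell with H1, H2A, H2B, H3 and H4. They were taken here as every protein-coding gene of the RefSeq table on GRCh38.p14 whose symbol starts with H1-, H2AC, H2BC, H3C or H4C and that lies between 25.7 and 28.3 Mb on chromosome 6 or between 149.7 and 150 Mb on chromosome 1. This rule found 66 of 19974 protein-coding genes, 55 on chromosome 6 and 11 on chromosome 1. The members are 6 H1, 16 H2A, 17 H2B, 13 H3 and 14 H4 genes. Their median length is 494.5 bp, and 58 are at most 1 kb long. The table gives no strand for 5 of them (H4C1, H4C3, H2AC12, H3C11 and H3C12), so positions along the gene are given for the other 61.

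Replication-dependent histone genes are transcribed by RNA polymerase II (Pol II) mainly while DNA is replicated, and their transcripts have no introns and no poly(A) tail. The transcript instead ends in a stem-loop that is bound by SLBP and cut by the U7 snRNP together with the endonuclease CPSF3. NPAT is the coactivator that gathers at these clusters. INTS11 is the endonuclease of Integrator, a complex that cuts transcripts of Pol II, and is a relative of CPSF3.

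ChIP-seq peak lists came from HCT116 INTS11-AID cells, a human colon cancer line whose INTS11 is fused to a degron that auxin switches on, and all groups share this tag. Immunoprecipitation was directed at Pol II or at 1 of 2 phosphorylated forms of its C-terminal domain, tyrosine 1 phosphate (Tyr1P) and serine 2 phosphate (Ser2P). For each antibody, 2 numbered libraries labelled Control were compared with 2 labelled IAA, the auxin that triggers degradation of the tagged protein. There are also 4 unnumbered Pol II libraries, 1 each for Control, IAA, the growth factor EGF and IAA+EGF. The labels' treatment text is the same for every library and names serum withdrawal (14 h), IAA (500 µM, 1 h), EGF (100 ng per µl, 30 min) and interferon beta, without saying which library received which. For the unnumbered IAA and EGF libraries the file name gives another treatment than the title, so their labels are in doubt. Whether the line is 1 clone, and whether numbered libraries came from separate cultures, is not given in the sources used here, so p-values measure only the spread between these libraries, which may be technical.

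The 16 immunoprecipitated lists held 15420 to 99476 peaks, and their estimated depth lay between 2.94 fragments per kb (Pol II Control replicate 1) and 13.6 (Ser2P Control replicate 1). Ser2P Control replicate 2, at 3.28 fragments per kb, had the shortest list and the fewest members with a peak. Neither input list, with 1579 and 1004 peaks, had a peak on or within 3 kb of any member. Of 15 colon epithelium markers, 8 had a peak on the gene in all 4 numbered Pol II libraries, EPCAM, CDH1 and KRT8 included. The same held for 1 of 10 blood markers and 1 of 8 fibroblast markers. KRT20, VIL1, CDX1, MUC2 and TFF3 had none.

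The promoters of the members share short sequence blocks, and 5 stretches are shown as examples of the H1, H4 and divergent H2A and H2B types. H1-2 and H1-4 had summit shifts in opposite directions, H4C4 was lower for all 3 antibodies, H4C11 ranked high without passing a test of change, and H2AC6 with H2BC4 is a pair whose Ser2P peak divided. All end at the base before the gene start in the RefSeq table (GRCh38.p14) and read 5′ to 3′ on the gene's strand. H1-2 is chr6:26056471-26056620 on the minus strand, H1-4 is chr6:26156179-26156328 on the plus strand, H4C4 is chr6:26189113-26189262 on the minus strand and H4C11 is chr6:27823942-27824091 on the plus strand. H2AC6 is chr6:26123927-26124171 on the plus strand, the whole gap of 245 bases up to the start of the divergent gene H2BC4. Capitals mark matches, on either strand, to the motifs named after the sequences.
H1-2: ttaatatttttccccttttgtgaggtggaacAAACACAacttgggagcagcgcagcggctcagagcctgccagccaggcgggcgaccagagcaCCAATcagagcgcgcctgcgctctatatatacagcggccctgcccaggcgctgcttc
H1-4: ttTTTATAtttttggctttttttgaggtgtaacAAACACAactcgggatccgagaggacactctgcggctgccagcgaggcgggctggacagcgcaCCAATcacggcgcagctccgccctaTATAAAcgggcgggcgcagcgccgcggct
H4C4: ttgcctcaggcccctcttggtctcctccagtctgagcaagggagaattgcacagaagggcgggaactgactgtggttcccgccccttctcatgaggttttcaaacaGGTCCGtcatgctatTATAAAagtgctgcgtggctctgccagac
H4C11: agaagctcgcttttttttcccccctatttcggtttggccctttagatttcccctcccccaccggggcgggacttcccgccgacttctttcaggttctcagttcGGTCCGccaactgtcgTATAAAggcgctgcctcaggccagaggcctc
H2AC6: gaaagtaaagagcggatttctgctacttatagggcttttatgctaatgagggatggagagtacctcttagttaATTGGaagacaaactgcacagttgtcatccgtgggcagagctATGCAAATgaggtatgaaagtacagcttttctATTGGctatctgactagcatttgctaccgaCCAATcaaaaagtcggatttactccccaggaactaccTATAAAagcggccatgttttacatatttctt

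Matches were sought on both strands of the 250 bases upstream of the start, and overlapping matches of different motifs were each counted. The windows of divergent H2A and H2B genes overlap, so the same match can count at both genes, as the octamer between H2AC6 and H2BC4 does. H3C4 and H2AC7 have the same start and the same window. Counts of promoters are therefore not counts of separate sites. The TATA box (TATAAA) was found at 41 of 61 members (67.2%) against 9.36% of all 15812 promoters of the table, and the CCAAT box (CCAAT) at 52 of 61 (85.2%) against 34.4%. The octamer (ATTTGCAT), which POU2F1 binds, was found at 26 of 61 (42.6%), among them 11 of 15 H2A and 14 of 17 H2B promoters, against 1.67% of all. The histone H4 box (GGTCCG), known as the site of HINFP, was found at 11 of 12 H4 promoters and at 12.1% of all. The histone H1 box (AAACACA) was found at 6 of 6 H1 promoters and at 3.73% of all.

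Pol II peaks were found on most, but not all, of these genes, and the members divided into those with a peak in every library and those with none. A peak shared at least 1 bp with the gene in all 16 libraries at 30 members (45.5%, against 38.5% of all protein-coding genes). At 22 members (33.3%, against 20.3% of all) no library had one, and 14 lay between. These shares depend on gene length, and most members are short. In the 4 numbered Pol II libraries, 54.5% of members had a peak in all and 34.8% in none. Other protein-coding genes of at most 1 kb had one in all at 6.01% and in none at 91.0%. H2A genes, which encode a core histone, had a peak in all libraries at 10 of 16, H4 genes at 8 of 14, H3 genes at 5 of 13, H2B genes at 5 of 17 and the linker histone genes H1 at 2 of 6. On chromosome 1 all 11 members had a peak in at least 1 library, and 9 had one in all 16. On chromosome 6, 21 of 55 had a peak in all 16 libraries and 22 in none.

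**Figure D1:**
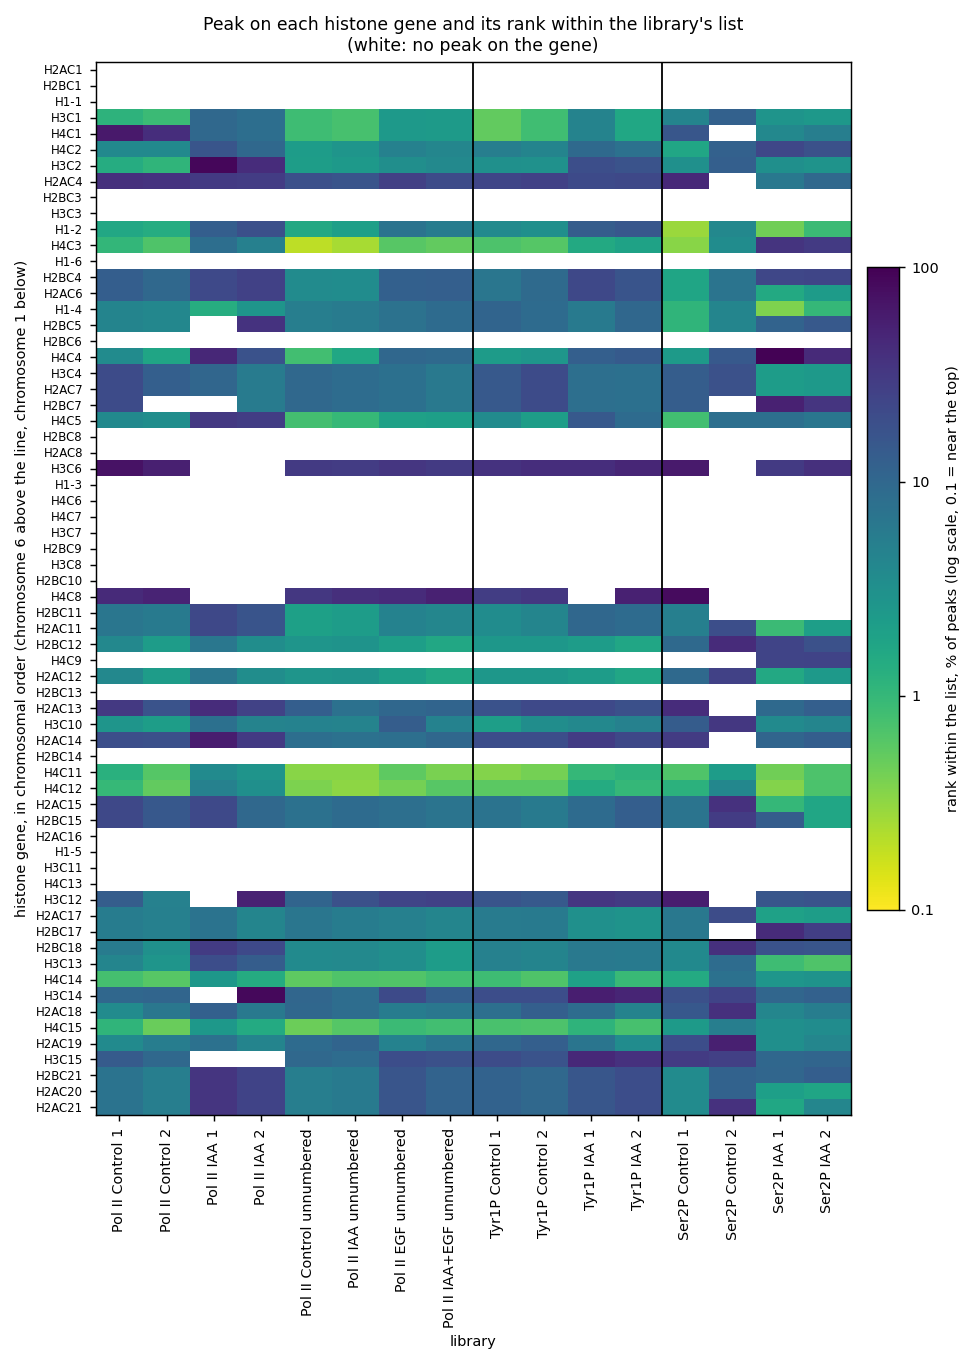
Rank of the peak on each of the 66 members (rows, in chromosomal order, chromosome 6 above the line and chromosome 1 below) within its own list, in percent of the list's peaks on a log colour scale, for each of the 16 libraries (columns); white means no peak on the gene. Coloured rows run through all 16 libraries at 30 members, and 22 rows are white throughout.

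The members without peaks lie beside each other. No library had a peak within 3 kb of 14 members. These are the testis genes H2AC1 and H2BC1, then H2BC3 and H3C3, then 7 consecutive members from H1-3 to H2BC10 (chr6:26234212-26273412, with H4C6, H4C7, H3C7, H2BC9 and H3C8 between them), and H1-5, H3C11 and H4C13. H2BC6, H2BC8, H2AC8 and H4C9 had no peak within 3 kb in any numbered Pol II or Tyr1P library, and H2AC16 had none in any numbered Ser2P library. The testis linker histone gene H1-6 and the linker histone gene H1-1 had no peak on the gene but had one within 3 kb in all 16 libraries. At H1-1 that summit stood at -2705 and -2721 bp from the start in Pol II Control and at -2734 and -2731 bp with IAA, where negative values are upstream. H2BC13 and H2BC14, which encode H2B, had peaks within 3 kb and none on the gene.

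The count of members with a peak moved little with IAA. For Pol II it was 43 and 42 in Control and 36 and 40 with IAA, and no IAA library reached the Control counts. As a share this was 65.2% and 63.6% of members in Control and 54.5% and 60.6% with IAA, against 64.4% and 67.1% and then 53.9% and 61.2% of all genes, so the fall was about the same over all genes. The mean difference was -4.5 members (two-sided exact permutation p = 0.33, the smallest that 2 libraries against 2 allow). In such bulk libraries, fewer cells with polymerase on a gene and less polymerase per cell cannot be told apart. For Tyr1P the counts were 43 and 43 in Control and 42 and 43 with IAA. For Ser2P they were 43 and 33 in Control and 42 and 42 with IAA, so that only the shallow Control replicate 2 stood apart.

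A member counted as lost when both Control libraries and neither IAA library had a peak on the gene, and as gained in the reverse case. Pol II lost 3 members, H3C15, H3C6 and H4C8, where 4.38% of all genes were lost, and gained 0, where 0.345% of all were gained. H3C6 encodes H3 and had 15 and 22 fragments at its Pol II summits in Control. H4C8 encodes H4 and had 24 and 24. At H3C15, which had 93 and 141 fragments in Control, the nearest summit moved from 35 and 61 bp downstream of the start to -1494 and -1469 bp, upstream of it. H3C15 and H3C14 are near-identical copies on chromosome 1, as are H2AC18 and H2AC19 and also H4C14 and H4C15, so reads could be split or placed on either copy, and their values are uncertain. Counting a peak anywhere within 3 kb left 0 lost members, and leaving out IAA replicate 2 gave 6. Adding the unnumbered libraries, of which the IAA label is in doubt, gave 0. Tyr1P gained 0 members (0.325% of all genes) and lost 0 (1.75%). Ser2P gained 1 (7.95%) and lost 0 (0.0451%). The gained gene, H4C9, which encodes H4, had 30 and 37 fragments at the summit with IAA. Without Ser2P Control replicate 1 there were 9 gained members, and without Control replicate 2 there were 2 lost ones.

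Which members stood highest was described by the rank of the peak within its own list, where a rank of 1% means that 1% of the list's peaks were at least as significant. Ranks are the authors' order of −log10 q within a list. A rank in percent also depends on the length of its list, which differed most for Ser2P. Ranks of different lists are therefore set side by side only as values, and their differences were not tested. The members with the best and worst median rank of each class, over the 4 numbered libraries of an antibody, are given with all 4 ranks where these differ widely. For Pol II, the H4 gene H4C14 had the best median rank, 1.10%. H4C1 had the worst of the H4 genes, with 61.9% and 40.7% in Control and 9.70% and 8.24% with IAA, and H3C2 that of the H3 genes, with 1.38% and 1.08% in Control and 88.3% and 41.2% with IAA. Both therefore stood low in 1 group only. The H1 order also differed by group: H1-2 stood at 1.60% and 1.38% in Control and 12.7% and 18.5% with IAA, and H1-4 at 4.49% and 4.06% in Control and 1.35% and 2.73% with IAA. In the other classes the median ranks were 3.67% for H2AC12 and 33.4% for H2AC4, 3.67% for H2BC12 and 18.3% for H2BC15, and 3.63% for H3C10. H2AC12 and H2BC12 share 1 peak. For Tyr1P the best was again an H4 gene, H4C11 at a median of 0.711%. H4C4 was the lowest H4 gene, with 2.24% and 2.63% in Control and 12.4% and 14.1% with IAA. The Tyr1P extremes of the H3 class were H3C1 at 1.23% and H3C6 at 40.8%, and those of the H2A class H2AC12 at 2.39% and H2AC4 at 22.9%. For Ser2P, H4C11 at 0.676% and H1-2 at 0.678% had the best medians. H4C4 was the lowest H4 gene, with 2.31% and 14.6% in Control and 95.1% and 44.4% with IAA. The H2A gene H2AC19 went the other way, with 19.7% and 54.8% in Control and 3.19% and 4.17% with IAA. The other Ser2P medians were 1.97% for H2AC6, 7.75% for H2BC5, 21.1% for H2BC12, 2.33% for H3C13 and 18.7% for H3C15.

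The signal at the summit was read as the number of DNA fragments stacked there, which was solved from the deposited fold and −log10 p of each peak. In every library the members carried more fragments than the typical gene, and this excess was smaller with IAA for all 3 antibodies. The median of the members divided by that of all genes with a peak was 2.91 and 3.13 in Pol II Control and 2.02 and 2.39 with IAA. For Tyr1P it was 2.19 and 2.48 in Control and 1.96 and 2.06 with IAA, and for Ser2P 1.79 and 1.67 in Control and 1.36 and 1.40 with IAA. No IAA library reached a Control value for any antibody (two-sided exact permutation p = 0.33 each, the smallest possible). No member's stack exceeded 91.1% of the limit that 2 fragments per position would set. This limit is assumed, since tool settings are not given, and whether stacks below it were compressed was not tested.

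Single genes were tested with limma on log2 fragments centred on the median of all genes, over all genes with a peak in all 4 libraries. Where several peaks lie on a gene, the most significant one was taken in each library, so the peak compared can change between libraries. For Pol II, 18 of 36 fitted members changed, 15 lower and 3 higher, where 40.7% of all fitted genes changed, 16.4% lower and 24.2% higher. The median log2 difference was -0.44 over the members and 0.06 over all fitted genes, and 28 of 36 members lay below the latter. The lower members span all 5 classes: the H1 gene H1-2, the H2A genes H2AC11, H2AC14, H2AC20 and H2AC21, the H2B genes H2BC11, H2BC18 and H2BC21, the H3 genes H3C1, H3C2 and H3C13 and the H4 genes H4C2, H4C3, H4C4 and H4C5. H2AC20, H2AC21 and H2BC21 share 1 peak, and so do H2AC11 and H2BC11. The higher members were H4C1 and the pair H3C4 and H2AC7, which share a start and a peak. At H4C1 the peak on the gene held 36 and 59 fragments in Control and 66 and 109 with IAA (log2 difference 1.12, SE 0.19, limma adjusted p = 0.00165). That peak was 287 and 407 bp wide in Control and 1513 and 1511 bp with IAA, where it is the same peak as that of H3C1. In Control these were separate peaks, and that of H3C1 held 134 and 176 fragments, so this 1 joined peak counts as higher at H4C1 and as lower at H3C1. At 14 of the 18, all lower, the peaks of the 4 libraries had bases in common and covered the same members. Without Control replicate 1 limma called 9 members and without Control replicate 2 it called 8. Scaled by each library's background, 0 Pol II members were higher and 24 lower, so the calls of H4C1, H3C4 and H2AC7 as higher hold only relative to all genes. With the unnumbered libraries added, of which the IAA label is in doubt, limma called 0 of 36 (7 at an unadjusted p under 0.05).

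H3C2 and H4C4 were lower for all 3 antibodies. They are 2 of 30 members fitted for all 3, where 0.675% of 7702 genes were lower in all 3. H3C2 encodes H3 and lies at chr6:26031589-26032099 on the minus strand. Its Pol II summit held 156 and 204 fragments in Control and 31 and 61 with IAA, so the groups lay far apart (log2 difference -1.80, SE 0.19, limma adjusted p = 2.92e-04). Its Tyr1P summit held 307 and 336 fragments in Control and 125 and 135 with IAA (limma adjusted p = 0.0122). Its Ser2P summit held 128 and 39 fragments in Control and 109 and 134 with IAA, which overlap as raw numbers and are lower only relative to all genes (log2 difference -0.68, limma adjusted p = 0.0240). The H3C2 call was lost for Tyr1P without Control replicate 2 (limma adjusted p = 0.0716) and for Ser2P without IAA replicate 1 or 2 (limma adjusted p = 0.244 and 0.159). H4C4 encodes H4. Its Pol II summit held 81 and 128 fragments in Control and 22 and 56 with IAA. The H4C4 Tyr1P summit went from 220 and 233 to 87 and 88, and its Ser2P summit from 97 and 25 to 14 and 25.

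For Tyr1P, 10 of 42 fitted members changed, 7 lower and 3 higher, where 36.1% of all fitted genes changed, 12.5% lower and 23.6% higher. The members' median log2 difference was -0.06, against 0.07 for all genes. The lower members were H2AC6 and H2BC4, which share a peak, H3C2, H3C12, H3C14, H3C15 and H4C4. The higher members H3C4, H2AC7 and H2BC7 share 1 peak, with 165 and 163 fragments in Control and 139 and 146 with IAA, which is higher only relative to all genes. Scaled by background, all 42 Tyr1P members were lower and 0 higher. Without Control replicate 1 there were 4 calls and without Control replicate 2 there was 1.

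For Ser2P, 14 of 33 fitted members changed, all 14 lower, where 20% of all fitted genes changed, 12.4% lower and 7.59% higher. The members' median log2 difference was -0.46, against -0.03 for all genes. It was nearly the same over other genes of the same windows (-0.43, 4 of 14 lower) and over histone genes outside the windows (-0.45, 5 of 12 lower). A fall of this size was thus not particular to the members. Over other genes of at most 1 kb it was -0.15, and over the histone transcription and processing factors -0.01. Lower H4 genes were H4C2, H4C3, H4C4, H4C5 and H4C14, and H1-2 and H3C2 were lower as well. At these 7 the peaks of the 4 libraries had bases in common and covered the same members. The other 7 calls compare peaks that differ between libraries. H2AC6, H2BC4, H2BC21, H1-4 and H2BC5 shared a Control peak with a neighbouring member and had one of their own with IAA. At H2BC12 and H2BC18, whose annotated genes are 8566 and 29682 bp long, the 4 peaks had no base in common, and with IAA 1 library's peak (that of H4C9 at H2BC12) lay far inside the gene. H4C3, an H4 gene at chr6:26103933-26104337, held 155 and 47 Ser2P fragments in Control and 23 and 29 with IAA, the largest fall among the 33 (log2 difference -3.18, SE 0.16, limma adjusted p = 2.80e-04). H4C2 went from 148 and 40 to 38 and 54 (log2 difference -2.22), and H4C5 from 151 and 36 to 62 and 83 (log2 difference -1.49). H4C11, in contrast, held 145 and 57 in Control and 178 and 192 with IAA (log2 difference -0.43) and did not pass the test. Among the others, H2BC4 went from 165 and 54 to 47 and 55 as the peak it shared with H2AC6 in Control gave way to one of its own. These differences are relative to all genes: scaled by each library's background instead, the median over the Ser2P members was 0.51 against 0.94 for all genes, with 15 members higher and 7 lower. On that scale the Pol II and Tyr1P medians were -1.28 and -0.94, against -0.78 and -0.81 for all genes. Without IAA replicate 1, 8 Ser2P members were called.

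The median summit of Pol II and Tyr1P over the members lay just inside the start and moved downstream with IAA, as it did over all genes. The offset is the signed distance from the gene start to the nearest summit within 3 kb, positive in the direction of transcription. The median offset over members was 35 and 36.5 bp in Pol II Control and 64 and 69 bp with IAA, against 51 and 51 bp and then 92 and 99 bp over all genes. For Tyr1P it was 33 and 33 bp in Control and 68 and 60 bp with IAA, against 45 and 47 bp and then 80 and 84 bp over all genes. Groups did not overlap for either antibody (two-sided exact permutation p = 0.33 each). The H2B class did not follow, with a median of -293 and -290 bp in Pol II Control and -293 and -296 bp with IAA. Its Tyr1P median was -283 and -288 bp in Control and -328 and -310 bp with IAA. Among members of at most 1 kb, the Pol II summit lay upstream of the start at 8 of 34 in each Control library. With IAA this was so at 12 of 34 and 12 of 35. Of the members measured in all 4 libraries, the 2 groups did not overlap at 32 of 41 for Pol II (68.6% of all genes) and at 31 of 43 for Tyr1P (67.8%), so members moved about as often as other genes did.

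For Ser2P the median summit of the members moved farther into the gene than that of all genes. The median offset was 65 and 74 bp in Control and 181 and 176 bp with IAA, against 40 and 33 bp and then 56 and 58 bp over all genes. The excess of the members over all genes was thus 25 and 41 bp in Control and 125 and 118 bp with IAA (difference 88.5 bp, two-sided exact permutation p = 0.33, the smallest possible, with no overlap). Groups did not overlap at 32 of 39 members, 27 of them downstream and 5 upstream with IAA, against 47.4% of all genes, 30.5% downstream and 17% upstream. Gene by gene, the median shift was 76.5 bp over these 39 members and 14 bp over all fitted genes. Over other genes of the same windows it was 61.25 bp, close to the members, though only 8 were fitted. It was 12.5 bp over other genes of at most 1 kb. Over members of at most 1 kb, the summit lay at 14.9% and 17.03% of the gene length in Control and at 34.9% and 34.8% with IAA. Other protein-coding genes of at most 1 kb stood at 5.38% and 6.90% in Control and at 10.9% and 9.16% with IAA. The Ser2P lists also differed in length, with 37442 and 15420 peaks in Control and 99476 and 88987 with IAA, and with lists cut to equal length the difference in median offset was 103 bp, close to the 109 bp of the full lists.

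**Figure D2:**
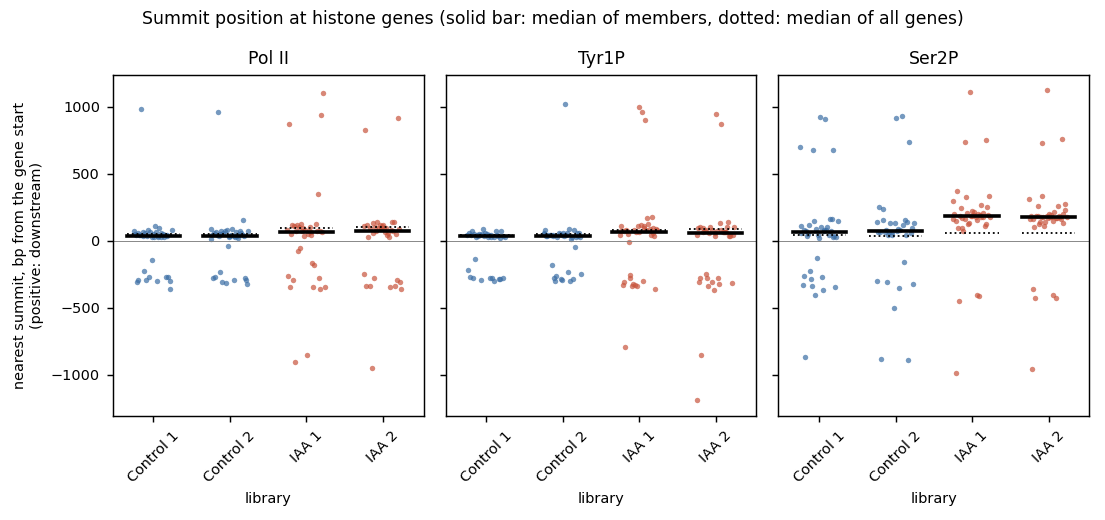
Signed distance in bp from the gene start to the nearest summit within 3 kb, by antibody and numbered library; points are members, solid bars their median and dotted lines the median of all genes. Summits beyond 1200 bp (2 to 5 members per library) are not drawn. The medians rise from 35 and 36.5 to 64 and 69 bp for Pol II and from 65 and 74 to 181 and 176 bp for Ser2P.

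Summits past the gene end, up to 3 kb from it and nearer to it than to any other gene end, were found at 3 and 6 members in Pol II Control and 3 and 3 with IAA, at 4 and 6 and then 4 and 5 for Tyr1P, and at 13 and 7 and then 9 and 9 for Ser2P. These counts overlapped between groups for every antibody. As a share of genes with a strand, the Ser2P counts are 21.3% and 11.5% of members in Control and 14.8% and 14.8% with IAA, against 26.5% and 12.2% and then 32.6% and 31.5% of all genes. For Pol II they are 4.92% and 9.84% and then 4.92% and 4.92% of members, against 3.88% and 5.76% and then 2.31% and 3.74% of all genes.

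Few single members passed the limma test of the offset, at a share near that of all genes for Pol II and Tyr1P. Pol II had 4 of 41 (9.94% of all fitted genes, 5.44% downstream and 4.5% upstream): H1-2 and H1-4 downstream, H3C15 and H4C8 upstream. At H4C8 the nearest summit lay at -146 and -43 bp in Control and at -903 and -950 bp with IAA, with no peak left on the gene, and the call was lost without any 1 of the 4 libraries. Tyr1P had 4 of 43 (9.85%, 6.1% downstream and 3.75% upstream): H1-2, H1-4, H2BC5 and H3C6, all downstream. H2BC5 shares the peak of H1-4, so this is 1 peak counted at 2 genes. At H3C6 the Tyr1P summit lay at -275 and -184 bp in Control and at 175 and 142 bp with IAA (388 bp, limma adjusted p = 0.0310), a call that was lost without any 1 of the 4 libraries. Ser2P had 6 of 39 (4.68%, 2.78% downstream and 1.9% upstream): H1-2 and H1-4 upstream, and the H2B genes H2BC4, H2BC5, H2BC7 and H2BC17 downstream. Without IAA replicate 1, 9 Pol II members were called. Leaving out either Control library left 0 Pol II calls (4 unadjusted) and 0 Tyr1P calls (5 unadjusted). For Ser2P, leaving out IAA replicate 1 left 0 calls (7 unadjusted) and leaving out IAA replicate 2 left 0 (8 unadjusted), while 12 and 13 were called without Control replicate 1 and 2. Taking the summit with the highest −log10 q in place of the nearest turned the Pol II shift at H3C15 to 41.5 bp. The smaller moves among the 10 members with the largest non-overlapping shifts include 56.5 bp at H4C15, 54 bp at H3C10, 51.5 bp at H2AC18 and -51.5 bp at H2BC12, all for Tyr1P, and none of these passed the test.

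The linker histone genes H1-2 and H1-4 stood apart, since their summits crossed the whole gene, in one direction for Pol II and Tyr1P and in the other for Ser2P. H1-2 is a gene of 731 bp at chr6:26055740-26056470 on the minus strand. Its Pol II summit lay at 61 and 71 bp in Control and at 872 and 827 bp with IAA. Its Tyr1P summit lay at 54 and 90 bp in Control and at 901 and 871 bp with IAA. Its Ser2P summit lay at 910 and 928 bp in Control and at 72 and 137 bp with IAA. In Control the Pol II and Tyr1P summits therefore sat just downstream of the promoter printed above and the Ser2P summit past the end, and with IAA these places were exchanged.

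H1-4 is a gene of 787 bp at chr6:26156329-26157115 on the plus strand and followed the same course. Its Pol II summit lay at 46 and 65 bp in Control and at 939 and 911 bp with IAA. Its Tyr1P summit lay at 74 and 57 bp in Control and at 999 and 942 bp with IAA. Its Ser2P summit lay at 925 and 913 bp in Control and at 91 and 103 bp with IAA. No other member was called in opposite directions by the tests of the single antibodies.

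The shift at H1-2 was 783.5 bp for Pol II (SE 24.1, limma adjusted p = 0.00624), 814 bp for Tyr1P (adjusted p = 0.00300 in limma) and -814.5 bp for Ser2P (adjusted p = 0.00878 in limma). At H1-4 it was 869.5, 905 and -822 bp (limma adjusted p = 0.00437, 0.00321 and 0.00400). A direct limma test of the Ser2P shift against the Pol II shift, over 8 libraries, called 5 of 39 members, 3 of them with a positive and 2 with a negative difference (10.3% of all fitted genes, 5.41% positive and 4.91% negative). They are H1-2, H1-4, H3C15 and the H2B genes H2BC7 and H2BC17. It gave -1598 bp at H1-2 (SE 44.0, adjusted p = 4.84e-05) and -1691.5 bp at H1-4 (SE 30.0, adjusted p = 1.19e-05). Of all members, 8 and 10 were called without Pol II IAA replicate 1 and 2, and 11 and 9 without Ser2P Control replicate 1 and 2. Leaving out any 1 of the 8 libraries kept both H1 calls, with differences of -1565.5 to -1630.5 bp at H1-2 and of -1677.5 to -1705.5 bp at H1-4. Within 1 antibody the call was lost without either Control library for Pol II (shift at H1-2 778.5 and 788.5 bp, limma adjusted p = 0.0873 and 0.0947) and Tyr1P, and without either IAA library for Ser2P. Over these omissions the shift at H1-2 stayed between 761 and 806 bp for Pol II, between 796 and 832 bp for Tyr1P and between -782 and -847 bp for Ser2P.

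The summit moved within a peak that already covered both places. At H1-2 the Control Pol II peak ran from 125 and 117 bp upstream of the start to 607 and 706 bp past the gene end. With IAA it ran from 2 and 40 bp upstream to 689 and 363 bp past the end. The Ser2P peak reached 866 and 722 bp past the end in Control and 291 and 378 bp with IAA. At H1-4 the Ser2P peak reached 1332 and 1341 bp past the end in Control, where H1-4 and H2BC5 shared it. With IAA the peak of H1-4 reached 285 and 360 bp past the end, and H2BC5 had a separate peak with 99 and 103 fragments. The shorter reach at H1-4 therefore comes with a division of the shared peak. The Pol II summit of H1-2 held 158 and 205 fragments in Control and 84 and 106 with IAA, and that of H1-4 131 and 181 in Control and 156 and 216 with IAA. Relative to all genes the first was lower and the second did not pass the test (limma adjusted p = 0.0199 and 0.0603). The call at H1-2 was lost without Control replicate 1, Control replicate 2 or IAA replicate 2 (limma adjusted p = 0.0992, 0.0797 and 0.0927).

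**Figure D3:**
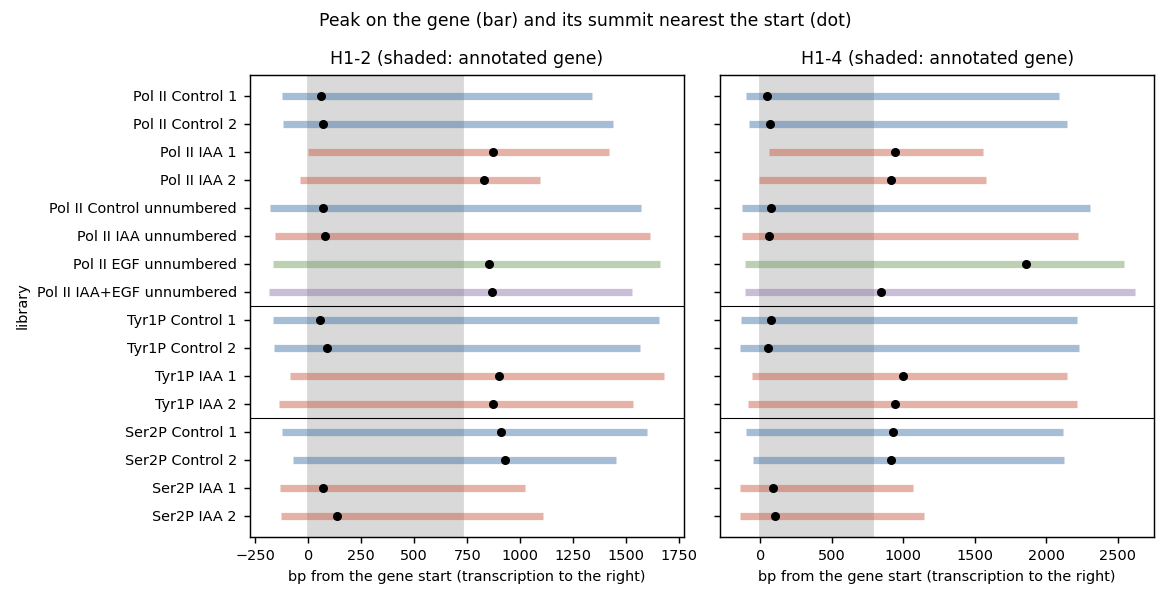
Extent of the peak on the gene (bar) and its summit nearest the start (dot) at H1-2 and H1-4 in each of the 16 libraries, in bp from the gene start, with the gene shaded; colours follow the labels, with Control blue, IAA red, EGF green and IAA+EGF purple. In Pol II and Tyr1P the numbered Control dots lie at 46 to 90 bp and the IAA dots at 827 to 999 bp, and in Ser2P the order is the reverse.

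The width of the peak on the gene also went a different way at the members for Ser2P. The median width over members was 1138 and 536 bp in Control and 403 and 490.5 bp with IAA, while over all genes it was 612 and 476 bp and then 787 and 842 bp. The members' median minus that of all genes went from 526 and 60 bp to -384 and -351.5 bp (two-sided exact permutation p = 0.33, no overlap). The limma median log2 difference was -0.72 over 33 members and 0.58 over all genes. It was 0.62 over the other genes of the same windows, 0.31 over other genes of at most 1 kb, 0.49 over the histone transcription and processing factors and -0.08 over the histone genes elsewhere in the genome. By limma 5 of 33 members changed, all narrower (11.5% of all fitted genes changed, 0.639% narrower and 10.9% wider): H2BC21, H2AC20, H4C3, H2BC5 and H4C4. At H4C3 and H4C4 the same peak was compared. At the other 3 a peak shared with a neighbour in Control gave way to a separate one with IAA, at H2BC5 from the peak of H1-4 (2219 and 2176 bp) to one of its own (345 and 376 bp), so these calls are a change of peak. H2AC20, which encodes H2A, had a Ser2P peak of 2363 and 1667 bp in Control and of 437 and 492 bp with IAA (fold 0.234).

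The size of this difference rests on 1 library. Without Ser2P Control replicate 1, the deepest, the difference in the members' median width was -89.25 bp, and without Control replicate 2, the shallowest, it was -691.25 bp. Divided by the median width of the whole list, the members stood at 2.52 and 1.23 in Control and at 1.24 and 1.33 with IAA, so that Control replicate 2 lay with the IAA libraries. The calls moved as well, to 14 and 22 members without Control replicate 1 and 2 and to 1 member without either IAA library. For Tyr1P the median width was 1214 and 1395 bp in Control and 1256.5 and 1140 bp with IAA, which overlap, and 5 of 42 members were narrower by limma (9.68% of all genes changed, 7.97% narrower and 1.71% wider): H3C2, H3C6, H3C14, H3C15 and H4C5. Without Control replicate 1 or 2, 0 Tyr1P members were called (12 and 9 unadjusted). For Pol II it was 846 and 1015 bp in Control and 832 and 897.5 bp with IAA, and limma called 0 of 36 members and 0% of 10220 genes (10 members and 2059 genes at an unadjusted p under 0.05).

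**Figure D4:**
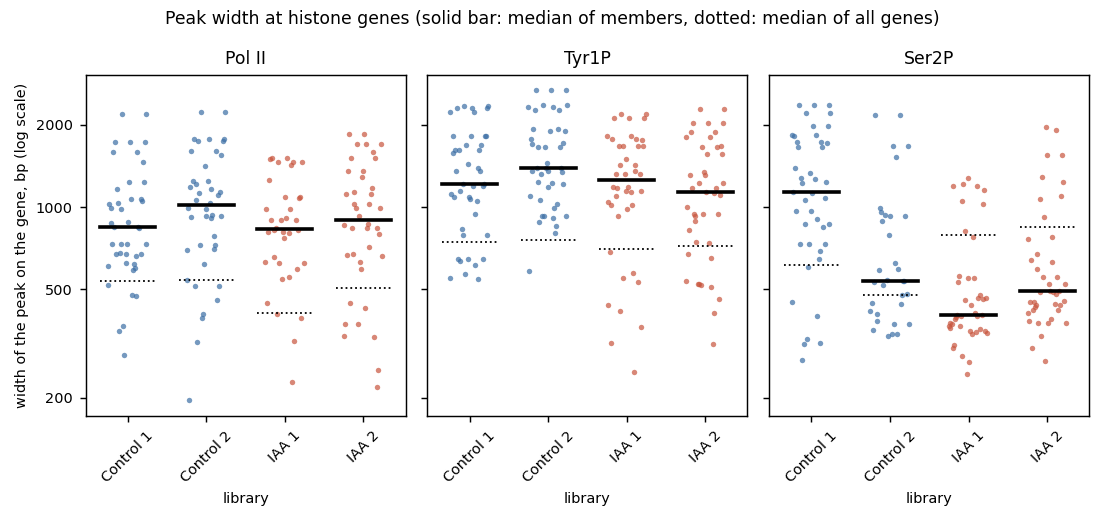
Width of the peak on the gene in bp (log scale), by antibody and numbered library; points are members, solid bars their median and dotted lines the median of all genes. In Ser2P the members' median is 1138 and 536 bp in Control and 403 and 490.5 bp with IAA, while the median over all genes rises from 612 and 476 to 787 and 842 bp.

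H2A and H2B genes lie in divergent pairs that share a promoter, and 10 such pairs with a known strand have starts 194 to 248 bp apart. H2AC12 and H2BC12, which lie side by side and share a Pol II peak, are left out because no strand is given for H2AC12. A peak was found on 8 of the 10 pairs, and on neither gene of H2AC1 and H2BC1 or of H2AC8 and H2BC8. In both Pol II Control libraries the summit lay on the H2A gene in 7 of the 8 pairs and on the H2B gene in 1, H2AC15 and H2BC15. With IAA it lay on the H2A gene in 5 pairs in each library and on the H2B gene in 1 and 3. No Pol II or Tyr1P library had summits on both genes of a pair.

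In the full lists, Ser2P differed in that with IAA both genes of a pair could have a summit of their own. Summits on both genes were found in 0 and 1 pairs in Control and in 5 and 4 pairs with IAA. At H2AC17 and H2BC17 the only Ser2P summit lay 21 and 62 bp into H2AC17 in Control. With IAA there was 1 summit 175 and 169 bp into H2AC17 and another 327 and 330 bp into H2BC17. H2AC6 and H2BC4, whose whole gap is printed above, went from 1 summit 38 and 61 bp into H2AC6 to one 225 and 197 bp into H2AC6 and one 250 and 202 bp into H2BC4. The same course was seen at H2AC7 and H2BC7 and at H2AC20 and H2BC21 in both IAA libraries. H2AC15 and H2BC15 did not follow it, with a summit on each gene in Control replicate 2 and IAA replicate 1 only. Members that shared their peak with another member numbered 20 and 8 in Ser2P Control and 6 and 4 with IAA, against 18 and 17 and then 17 and 18 for Pol II and 22 in every numbered Tyr1P library.

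The count of pairs with summits on both genes depended on the length of the lists. Cut to 15270 peaks each, the Ser2P lists gave summits on both genes in 0 and 1 pairs in Control and in 2 and 1 with IAA, so the groups were no longer apart. Members sharing a peak still numbered 20 and 8 in Control and 4 and 4 with IAA. The 4 H2B genes called downstream for Ser2P follow from these second summits or, at H2BC5, from a peak of its own apart from that of H1-4. H2BC5 had its nearest Ser2P summit at -867 and -879 bp in Control and at 269 and 258 bp, inside the gene, with IAA. With the most significant summit in place of the nearest, the shift turned to -822 bp at H2BC5, -38 bp at H2BC7, -130.5 bp at H2BC17 and -161.5 bp at H2BC4. With lists of equal length it turned at H2BC7, H2BC17 and H2BC4.

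**Figure D5:**
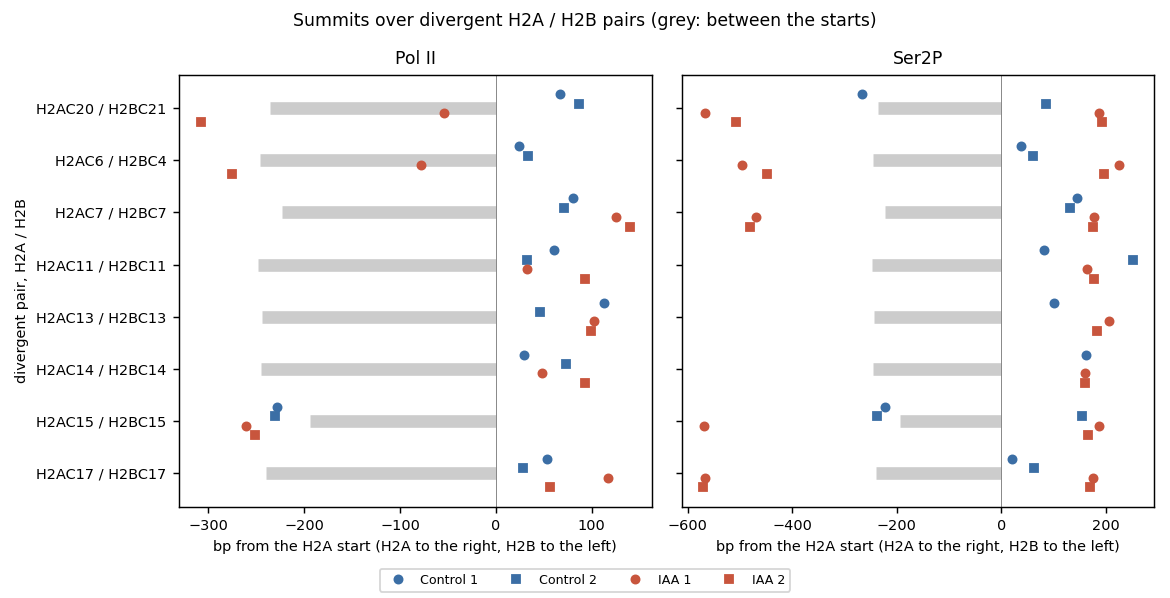
Positions of Pol II and Ser2P summits at the 8 divergent H2A and H2B pairs with peaks, in bp from the H2A start with the H2B gene to the left, for each numbered library (Control blue, IAA red; circles replicate 1, squares replicate 2); grey bars span the gap between the starts. The Ser2P IAA libraries show a summit on each gene in 5 and 4 pairs, and no Pol II library shows 2 summits at a pair.

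Genes around and beyond the clusters gave a frame for these values. Of 32 factors of histone gene transcription and transcript processing, 28 had a Pol II peak in all 4 numbered libraries, 32 a Tyr1P peak and 20 a Ser2P peak. CPSF2, a partner of CPSF3 in the cleavage complex, was the only one of the 32 gained or lost, with a Ser2P peak in each IAA library and in no Control library. Over all genes, 7.95% were gained for Ser2P, so 1 of 32 is no excess. NPAT had 34 and 42 Pol II fragments in Control and 29 and 35 with IAA. SLBP had 68 and 85 in Control and 24 and 55 with IAA. CASP8AP2, which also gathers at histone loci, had 48 and 46 in Control and 33 and 57 with IAA, so that Control and IAA overlap at CASP8AP2 and NPAT and not at SLBP. Of 31 histone genes outside the windows, 13 had a Pol II peak in all 4 libraries and 12 a Ser2P peak. Their median Ser2P offset differed by 12.5 bp with IAA, against 76.5 bp over the members and 61.25 bp over 8 other genes of the windows. Some genes of this list have symbols like those of the members. The Ser2P summit went from 28 and 80 bp to 152 and 186 bp at H2AC25 and from 75 and 29 bp to 144 and 150 bp at H4C16. At H2BC26 the nearest summit was that of its neighbour H2AC25, measured in the opposite direction, at -258 and -310 bp and then -382 and -416 bp. This is 1 move seen from both genes. A downstream move was thus not confined to the windows.

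The 4 unnumbered Pol II libraries give 1 value per label and no test. All had a peak on 43 members. The median offset was 45 bp in the library labelled Control, 38 bp in that labelled IAA, 62.5 bp in that labelled EGF and 56 bp in that labelled IAA+EGF. At H1-2 the summit lay at 68, 80, 853 and 869 bp in the same order, and at H1-4 at 74, 64, 1859 and 842 bp. The library labelled IAA thus lay with that labelled Control at both genes. At H1-2 the libraries labelled EGF and IAA+EGF lay near the numbered IAA libraries, as did that labelled IAA+EGF at H1-4. In the library labelled EGF, the summit nearest the H1-4 start stood 67 bp inside the neighbouring gene H2BC5. It is therefore not a summit of H1-4 alone. The ratio of the members' median fragments to that of all genes was 3.25, 3.13, 2.51 and 2.86. When the unnumbered Control and IAA libraries joined the numbered ones in the fit, limma called 0 of 41 members as shifted (0 unadjusted) and 22 of 8542 genes. Because the treatment of the library labelled IAA is in doubt, counts with these libraries added cannot decide whether the calls hold.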

How the data were processed

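The data are 18 peak lists, 16 from immunoprecipitated and 2 from input libraries, grouped by title. Per the submitters' processing notes, reads and peaks were handled on build hg38 with MACS2 2.2.7.1, Bowtie2 2.3.4.1, Trim Galore 0.6.6, deepTools 3.5.1 and Picard 2.25.7. Not given in the sources used here are tool settings and whether inputs served as control. Lists were made for each library separately. The columns that the authors deposited are a fold enrichment (a ratio), −log10 p and −log10 q at the summit (lowest −log10 q 1.31), a whole-number score and, as another column, where the summit lies. These belong to a peak within its own list and were used only to rank, filter or solve it. A MACS2 list holds no peak below its threshold, so a missing peak does not show that signal was absent.

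Peaks sharing at least 1 bp with an input peak were removed (0.276% to 2.31% of a list). The fragments stacked at a summit and the local background were solved from the deposited fold and −log10 p, with the fold read as (fragments + 1)/(background + 1) and the p read as the upper tail of a Poisson distribution. At least 99.93% of peaks in every list gave a whole number within a relative tolerance of 0.0002. Background divided by the shortest peak width gave fragments per kb, an estimate of depth.

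Genes, starts, strands and promoter sequences came from RefSeq tables on GRCh38.p14, the assembly that hg38 names, and 61 of 66 members had a strand and a promoter. Where a gene had several starts, the 5′-most was used. Library values were compared by two-sided exact permutation tests, which cannot go below 0.33 for 2 against 2 libraries or below 0.5 within pairs. Gene values were fitted in limma 3.58.1 with robust empirical Bayes over all genes measured in all 4 libraries, with Benjamini-Hochberg adjustment over all of them and a threshold of 0.05. The tests of fragments, widths and antibody differences, and the comparison of which peak each call rests on, were added after seeing the data. Of the fits, only that of the offset was tested on simulated data, which were made from Pol II Control values. The added fits were not tested in this way. Python 3.11.15 and R 4.3.3 were used.

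Members, gene lists and tests were chosen with earlier results of these data known. Named genes are, for each antibody, the members with the highest and lowest median rank of each class, those gained or lost, up to 10 with the largest offset difference between groups that do not overlap, and those without a peak within 3 kb. The testis genes and, of the factors, NPAT, SLBP, CASP8AP2 and any gained or lost factor are also named. Genes that passed the added tests were named after their values were seen. Of 33 histone genes listed outside the windows, 31 were matched by symbol. Alternatives were the peak threshold, list length, window, choice of summit and start, replicate block, each library left out and the unnumbered libraries added. Samples of the same number did not deviate together, as given in the closing section.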

Additional observations from a re-analysis of the deposited data

Results flagged for a closer look

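Where every library of one antibody moved one way and every library of another the opposite way, by at least 100 bp for both antibodies, the summit shift was looked at again, and this held at 6 members. Where the difference was tested, limma compared the Ser2P shift (IAA minus Control) with the Pol II shift over 8 libraries. At the linker histone genes H1-2 and H1-4 the difference was -1598 bp (limma adjusted p = 4.84e-05) and -1691.5 bp (limma adjusted p = 1.19e-05). Against Tyr1P the Ser2P shifts of H1-2 and H1-4 differed by -1628.5 and -1727 bp, and these 2 differences were not tested. At the H3 gene H3C15 the difference was 1887.5 bp (limma adjusted p = 0.0143), but with the most significant summit it turned to -1030 bp. The call was lost without either Pol II Control library or either Ser2P IAA library (limma adjusted p = 0.0577 to 0.0618). H3C15 has a near-identical copy, H3C14. The same test also called the H2B genes H2BC7 (Pol II -57 bp, Ser2P 613.5 bp, difference 670.5 bp, limma adjusted p = 1.80e-04) and H2BC17 (Pol II -46 bp, Ser2P 610 bp, difference 656 bp, limma adjusted p = 9.21e-04), whose Pol II shifts were under 100 bp. With the most significant summit these differences were 19 and -1273.5 bp, and neither was called.

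At H2AC20, H2AC21 and H2AC6, every library of one antibody moved against the other, but limma did not call the difference. It was 539 bp at H2AC20 (limma adjusted p = 0.221), -848 bp at H2AC21 (limma adjusted p = 0.459) and 367 bp at H2AC6 (limma adjusted p = 0.0896). H2AC20 and H2AC6 are H2A genes of divergent pairs whose Pol II summits lay upstream of the H2A start with IAA and whose Ser2P summits then lay farther inside the gene.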

How the results depend on the processing

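The difference in median offset kept its direction under every alternative run, at 18.2 to 35.5 bp for Pol II, 27.0 to 35.0 bp for Tyr1P and 82.0 to 114 bp for Ser2P, as did the ratio of the members' median fragments to that of all genes. Pairing was checked by the correlation of deviations of libraries with the same number, which lay between -0.0459 and 0.0237, so the numbers were not taken to pair libraries. With the replicate block, limma called 0 shifted members for Pol II (4 unadjusted), 0 for Tyr1P (5) and 0 for Ser2P (7), 0 members of changed width for Tyr1P (13 unadjusted) and 12 for Ser2P, and other counts of calls stayed within 1.5 times. With 2 libraries against 2 the block leaves 1 residual degree of freedom in such a fit.

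IAA minus Control values that moved are given here. A window of 3 kb gave 0 for the count of Pol II members with a peak, 0 for Tyr1P, 0 lost Pol II members and 2 gained Ser2P members. Lists of equal length gave 0.5 for Pol II and 0 for Tyr1P members with a summit past the end, -3.5 for Ser2P members with a peak, 2 gained and 5 lost Ser2P members, and Ser2P shifts of -38 bp at H2BC7, -130.5 bp at H2BC17 and -161.5 bp at H2BC4. A window of 1 kb gave 0 for Tyr1P summits past the end, and a −log10 q of at least 5 gave 1 for Ser2P. The unnumbered libraries, added to Pol II although the IAA label is in doubt, gave 0 lost, 0 shifted (0 unadjusted) and 0 members with changed fragments (7 unadjusted).

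The summit with the highest −log10 q gave 41.5 bp at H3C15 for Pol II and, for Ser2P, -822 bp at H2BC5, -38 bp at H2BC7, -130.5 bp at H2BC17, -161.5 bp at H2BC4, -618 bp at H2BC21 and -988.5 bp at H3C15. The Ser2P against Pol II difference became -1030 bp at H3C15 and -1273.5 bp at H2BC17, with 8 members called. Scaled by the background, limma called 42 Tyr1P (all lower), 24 Pol II (all lower) and 22 Ser2P members (15 higher, 7 lower) for fragments, and H3C2 in Ser2P became 0.29 on the log2 scale. The cause of these changes was not tested.

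Leaving out 1 library at a time, the Pol II differences ranged from -150.25 to 18.75 bp in width and from -3 to 0 in summits past the end, with 3 to 6 lost members, 0 to 9 shifted members and 8 to 15 with changed fragments. For Tyr1P they ranged from -1 to 0 in members with a peak and from -1.5 to 0.5 in summits past the end, with 0 to 1 lost, 0 to 3 shifted, 0 to 6 of changed width and 1 to 11 with changed fragments. For Ser2P they ranged from -1 to 9 in members with a peak and from -4 to 2 in summits past the end, with 1 to 9 gained, 0 to 2 lost, 0 to 13 shifted, 1 to 22 of changed width and 8 to 18 with changed fragments. The Ser2P against Pol II test called 4 to 11 members. A lone library left in a group was assumed to vary like the other group. Of single-gene values, 383 kept their side of the threshold and their direction, 85 lost the call, 13 gained one and 13 reversed. The alternatives on starts, fragments, widths and antibody differences were chosen after seeing the data. The Ser2P Control libraries differed in depth, at 13.6 and 3.28 fragments per kb, and peaks missing in the shallower one may lie under its threshold.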
